A study of Mus musculus with 20 samples.

Results

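Genes that move and store zinc, copper and manganese were followed in the liver after sham surgery or after a gastric bypass of the Roux-en-Y type (RYGB). The members were the 10 genes of the count table whose Ensembl mouse identifier carries the symbol *Mt1*, *Mt2*, *Slc30a1*, *Slc30a10*, *Slc39a5*, *Slc39a8*, *Slc39a14*, *Atp7b*, *Cp* or *Slc31a1*, out of 54532 genes. Of these 10, 9 passed the filter on low counts (a CPM, counts scaled to library size, no lower than 2 in 3 or more of the mice), and *Mt2* did not. RNA-seq was performed on 20 livers from male C57BL/6 mice, which became obese over 12 weeks of high-fat diet (HFD), were operated on, and then ate chow or HFD for 8 weeks. The 4 groups of 5 mice were Sham Chow (sham surgery, then chow), RYGB Chow (bypass, then chow), Sham HFD (sham surgery, then HFD) and RYGB HFD (bypass, then HFD), with 1 library from each mouse. All mice shared the earlier HFD and an operation, and per the study's methods the livers were picked at random within each group of a parent cohort. The study describes Sham HFD mice as obese and the other 3 groups as lean, so diet and obesity cannot be told apart in Sham Chow vs. Sham HFD, nor surgery and lower body weight in Sham HFD vs. RYGB HFD.

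The liver takes up zinc, copper and manganese from blood and decides how much is stored, used by enzymes, secreted on carrier proteins or passed into bile. Transporters of the SLC39 (ZIP) family move metal into the cytosol, those of the SLC30 (ZnT) family move it out, and metallothioneins bind zinc and copper inside the cell. The metal sensor MTF1 binds metal response elements in the promoters of metallothionein genes and of the zinc exporter *Slc30a1* when cytosolic zinc is high, so these genes are widely read as markers of cellular zinc.

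Because metallothioneins and *Slc30a1* are the textbook MTF1 targets among the members, the 250 bases before their RefSeq start (GRCm38.p6) are shown 5′ to 3′ on the plus strand, with matches to the metal response element core (TGCACNC or TGCGCNC, searched on both strands) in capitals. They lie at chr8:94178839-94179088 for *Mt1*, chr8:94172368-94172617 for *Mt2* and chr1:191906531-191906780 for *Slc30a1*.
Mt1: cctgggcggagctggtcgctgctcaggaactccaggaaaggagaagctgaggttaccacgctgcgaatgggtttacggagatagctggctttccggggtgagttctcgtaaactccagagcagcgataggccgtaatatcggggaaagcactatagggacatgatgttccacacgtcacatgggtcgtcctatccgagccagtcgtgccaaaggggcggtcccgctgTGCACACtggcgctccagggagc
Mt2: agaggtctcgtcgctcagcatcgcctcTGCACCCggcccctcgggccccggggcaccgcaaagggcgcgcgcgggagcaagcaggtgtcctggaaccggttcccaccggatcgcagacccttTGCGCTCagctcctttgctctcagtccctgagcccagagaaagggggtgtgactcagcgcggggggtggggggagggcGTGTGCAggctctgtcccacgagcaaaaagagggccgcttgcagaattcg
Slc30a1: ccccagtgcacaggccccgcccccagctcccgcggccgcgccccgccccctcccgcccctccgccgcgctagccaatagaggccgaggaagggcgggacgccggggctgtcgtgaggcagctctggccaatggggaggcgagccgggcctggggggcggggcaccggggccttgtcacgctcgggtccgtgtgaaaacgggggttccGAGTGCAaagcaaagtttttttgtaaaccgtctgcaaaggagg
The stretch of *Mt2* held 3 matches, 2 of them on the plus strand, while those of *Mt1* and *Slc30a1* held 1 match each. With the 50 bases after the start counted as well, *Mt1* held 3 matches, *Mt2* held 4 and *Slc30a1* held 2. These counts depend on the RefSeq start used, and bases farther upstream or downstream were not searched. RefSeq stored 12 promoters for 9 of the members, and none was stored for *Slc39a14*. The core was found in 7 of the 12, belonging to 7 different genes, beside 25.7% of the 32851 stored mouse promoters of the same 300 bases. A STAT motif (TTCNNNGAA) was in 0 of the 12, beside 8.3% of all promoters, and an antioxidant response element core (TGACNNNGC) was in 4 of the 12, beside 12.4%. Overlapping matches were each counted, and a match is a run of letters, not a measured binding site.

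Total counts ran from 14604854 to 22537498 per mouse, and the 7 hepatocyte marker genes summed to 78107 to 131459 CPM, with all 7 past the filter. Levels between genes were compared as CPM per kb of exon, and levels of the same gene between mice as CPM after TMM scaling. Bulk liver cannot tell fewer cells of a type from less RNA per cell.

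Per length of exon, the members differed widely in level. *Mt1* was at 131 ± 87.1 CPM per kb (mean ± SD over all 20 mice) and *Cp* at 125 ± 19.7, followed by *Slc31a1* at 50.6 ± 2.76 and *Slc39a14* at 23.3 ± 3.26. *Slc30a1* (10.8 ± 1.36 CPM per kb), *Slc30a10* (7.14 ± 1.82), *Atp7b* (7.09 ± 1.16) and *Slc39a8* (4.59 ± 0.530) formed a middle range, and *Slc39a5* (0.666 ± 0.587) was lower. *Mt2* was listed at 0.0381 ± 0.0969 CPM per kb, from 9 counts in all, which is at its limit of detection, and only 156 of its exon bases are not shared with another gene. The merged exons of *Mt1* cover its whole span of 1246 bases, so any intron counts as exon, which lowers its level per kb. On these lengths, the mean levels of *Mt1* and *Cp*, and those of *Slc30a10* and *Atp7b*, lay closer together than the SD of either gene of the pair. The most abundant SLC39 importer among the members was therefore *Slc39a14*, whose mean level per kb was above that of *Slc39a8* and *Slc39a5* in each group.

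**Figure D1:**
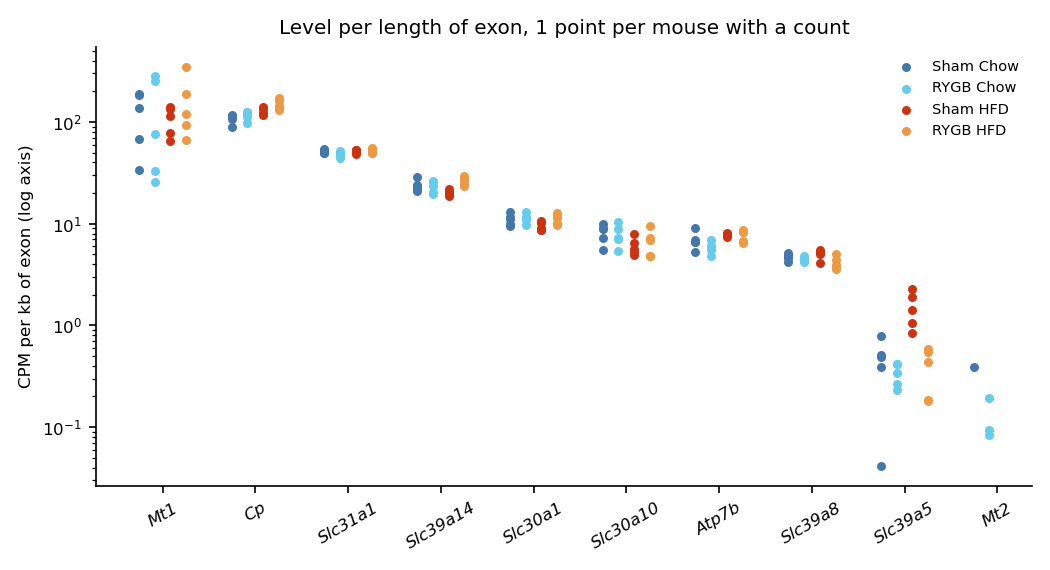
Level of each of the 10 members in CPM per kb of exon (vertical log axis), with 1 point for each mouse that had a count, coloured by group; genes are in order of their mean. *Mt1* spreads from 25.7 to 348 CPM per kb, *Slc31a1* only from 43.9 to 55.6, and *Mt2* has points for 4 mice, all on chow.

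The spread between mice of the same group differed widely among the members. *Mt1* had a within-group SD of 1.09 on the log2(CPM + 0.5) scale, and 99.7% of the 12289 tested genes had a smaller one. At the other end, *Slc31a1* had a within-group SD of 0.073, and 0.846% of tested genes had a smaller one. *Slc39a5*, with few counts, stood at 95% and *Slc30a10* at 81.4%, and the other 5 tested members lay between 23% and 45.7%.

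Among the metallothioneins, small cysteine-rich proteins that hold zinc and copper, *Mt1* (ENSMUSG00000031765, chromosome 8 from 94179082 to 94180327, GRCm38) was abundant in all mice but did not separate the groups. It was measured at 84.7, 42.1, 235, 231 and 171 CPM in Sham Chow and at 32.1, 41.4, 94.2, 349 and 315 CPM in RYGB Chow. On HFD it was measured at 143, 174, 80.5, 169 and 96.2 CPM in Sham HFD and at 236, 433, 151, 83.2 and 115 CPM in RYGB HFD. All 4 groups overlapped. The spread was narrowest in Sham HFD (80.5 to 174 CPM), while within RYGB Chow the highest mouse had 10.9 times the level of the lowest. For *Mt1* the log2 fold change came to 0.12 (SE 0.58, adjusted p = 0.967) in Sham Chow vs. RYGB Chow and 0.62 (SE 0.59, adjusted p = 0.509) between the HFD groups, and between the diets it was -0.20 (SE 0.59, adjusted p = 0.831) in sham and 0.29 (SE 0.58, adjusted p = 0.848) in RYGB mice. With standard errors of this size, *Mt1* could not be shown to differ, and a sizeable difference in either direction was not detectable with 5 mice per group. Leaving out 1 mouse at a time moved the chow difference between -0.34 (without RYGB Chow replicate 4) and 0.39 (without RYGB Chow replicate 1), and the HFD difference between 0.14 (without RYGB HFD replicate 2) and 0.82 (without RYGB HFD replicate 4).

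The 5 tested genes whose log2(CPM + 0.5) was most like that of *Mt1* over the 20 mice were *Vamp2* (Pearson r = 0.81), *Tmco4* (0.77), *Tap2* (0.77), *Neu1* (0.75) and *Krt18* (0.73). With each group's mean taken out, r was between 0.73 and 0.82 for these genes. The 20 values share 4 treatments and sequencing depth, and the genes were picked from all tested genes for their r, so no p-value is given.

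*Mt2* (ENSMUSG00000031762, chromosome 8 from 94172664 to 94173568), which usually follows *Mt1* closely, was nearly absent from the counts. It had 0, 0, 5, 0 and 0 counts in the 5 Sham Chow mice, 0, 0, 1, 1 and 2 in the 5 RYGB Chow mice, and 0 in all 10 mice on HFD. At these depths a count of 0 allows a level of up to 0.127 to 0.214 CPM, taking 3 counts per library as the limit, and all groups lay at or near it, so no fold is given. The exact permutation test (two-sided, all splits of 5 mice against 5, smallest possible p 0.00794) gave p = 0.167 for RYGB Chow vs. RYGB HFD and p = 1 for the other contrasts, of which Sham HFD vs. RYGB HFD held counts of 0 alone. Of the 588 exon bases of *Mt2*, 432 (73.5%) are shared with exons of *Gm45774*, a gene on the opposite strand whose highest count in any mouse was 25, while *Mt1* shares 0 exon bases with another gene. The libraries were strand-specific, but whether strand was used in counting is not given in the sources used here, and the part of this overlap in the low *Mt2* counts was not tested. *Mtf1*, which encodes the metal sensor, was called in 0 of the 4 contrasts, with group means from 17.2 to 19.0 CPM and adjusted p-values of 0.58 or more (0 had an unadjusted p under 0.05).

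**Figure D2:**
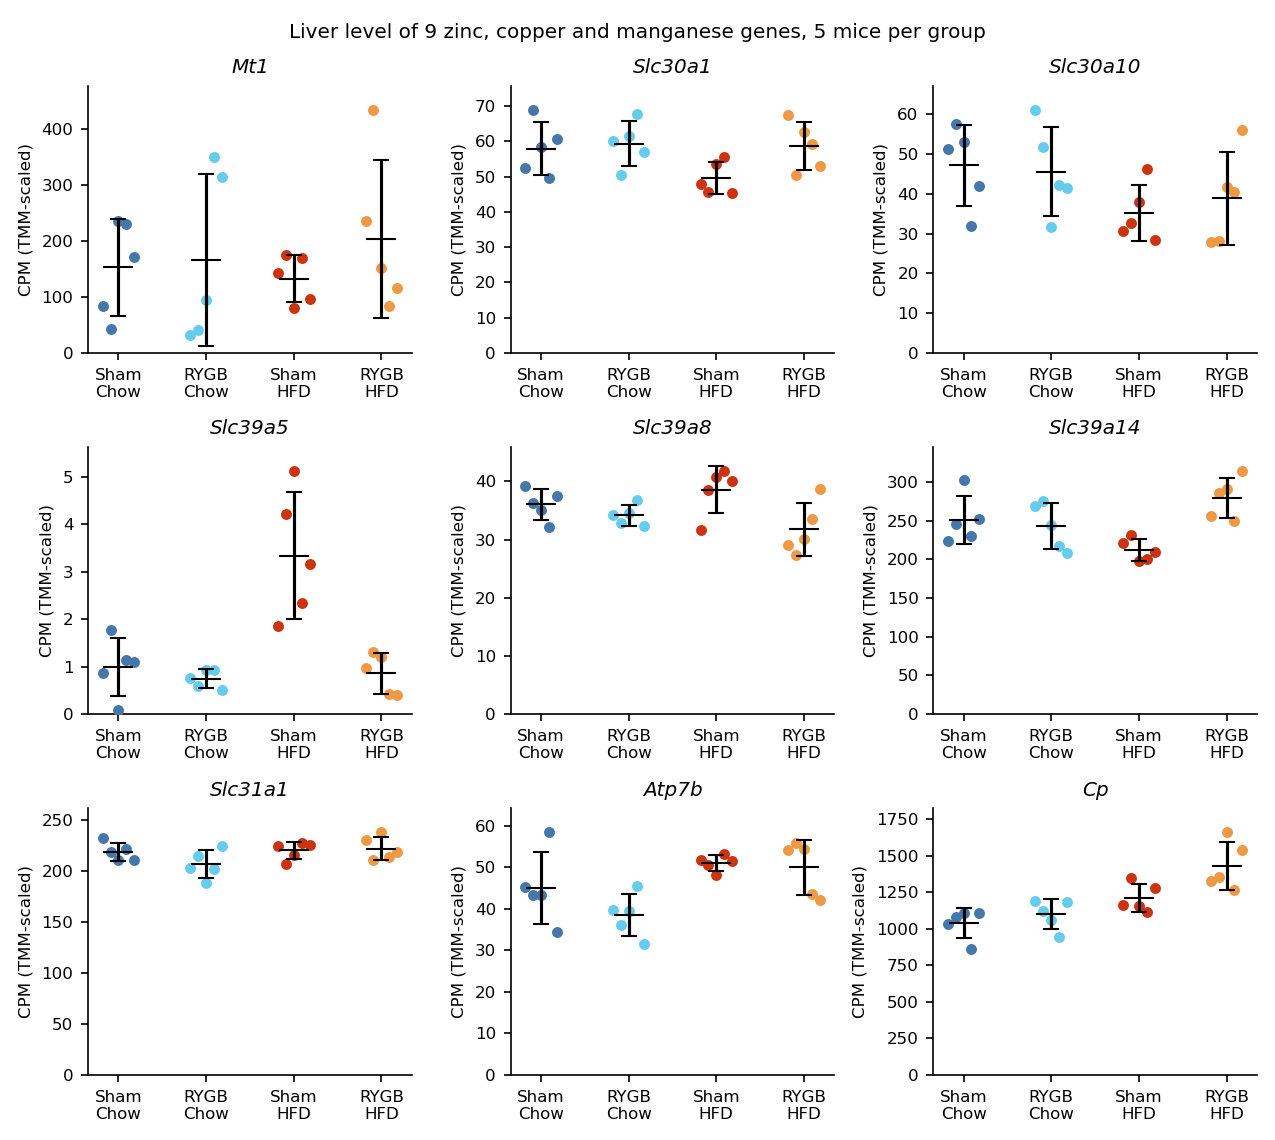
Level of the 9 tested members in each of the 20 mice, in TMM-scaled CPM (vertical axes start at 0), with the mean and SD of each group of 5 as bars. *Slc39a5* is higher in all 5 Sham HFD mice than in any other mouse, *Slc39a14* is lower in all Sham HFD than in all RYGB HFD mice, *Cp* is higher in all RYGB HFD than in all RYGB Chow mice, and *Mt1* overlaps between all groups.

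Neither exporter among the members passed the test in any contrast. *Slc30a1* (ENSMUSG00000037434, chromosome 1 from 191906767 to 191913247) encodes ZnT1, which carries zinc out through the plasma membrane. HFD-fed mice averaged 58.6 ± 6.87 CPM after RYGB and 49.6 ± 4.65 CPM after sham surgery, and chow-fed mice 59.3 ± 6.36 and 58.0 ± 7.51 CPM (mean ± SD, n = 5 each). Sham HFD was thus the lowest group, with log2 differences of -0.23 (SE 0.10, adjusted p = 0.111) from Sham Chow and 0.24 (SE 0.10, adjusted p = 0.105) to RYGB HFD, and the mice of these groups overlapped.

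*Slc30a10* (ENSMUSG00000026614, chromosome 1 from 185454848 to 185468762) encodes ZnT10, which exports manganese and is needed for its passage into bile. HFD-fed mice averaged 38.8 ± 11.6 CPM after RYGB and 35.2 ± 7.13 CPM after sham surgery, and chow-fed mice 45.6 ± 11.2 and 47.2 ± 10.2 CPM. The difference farthest from 0 was -0.43 (SE 0.20, adjusted p = 0.131) in Sham Chow vs. Sham HFD, where the unadjusted p was 0.0454. *Slc30a1* shares 8.92% and *Slc30a10* 9.13% of their exon bases with genes on the opposite strand whose highest counts were 20 and 46, against 448 or more counts of either member in any mouse.

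Among HFD-fed mice, the members called between RYGB and sham surgery were zinc and manganese importers of the SLC39 family. In Sham HFD vs. RYGB HFD, 3 of the 9 tested members passed an adjusted p of 0.05, beside 16.4% of all 12289 tested genes. All 3 were importers, *Slc39a5* and *Slc39a8* lower and *Slc39a14* higher in RYGB HFD, and the median log2 difference of the 9 members was 0.14, beside 0.0095 over all tested genes. *Slc39a5* was tested only because its Sham HFD mice, where it is high, passed the filter on low counts, so these counts of 9 members, here and between the diets of sham mice, describe the genes tested and support nothing further. The diet contrast of sham mice (Sham Chow vs. Sham HFD) had 1 of 9 members past the test (*Slc39a5*), beside 21.6% of all tested genes, and a member median of 0.0097 beside -0.0047. The surgery contrast on chow (Sham Chow vs. RYGB Chow) had 0 of 9 members past the test, beside 0.057% of all tested genes in edgeR, 0 had an unadjusted p under 0.05, and 0 passed with DESeq2 or limma-voom. The member median there was -0.051, beside -3.6e-05 over all tested genes. These contrasts share groups of mice and are not independent of each other.

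*Slc39a5* (ENSMUSG00000039878, chromosome 10 from 128395931 to 128401229) encodes ZIP5, a zinc importer of the basolateral membrane of epithelial cells. It was measured at 0.869, 1.76, 0.0925, 1.14 and 1.09 CPM in Sham Chow, from 18, 34, 2, 16 and 18 counts, and at 0.763, 0.592, 0.934, 0.929 and 0.509 CPM in RYGB Chow. In Sham HFD it was at 1.86, 4.21, 5.11, 2.34 and 3.16 CPM, from 32, 91, 121, 39 and 72 counts, and in RYGB HFD at 0.979, 1.30, 1.21, 0.414 and 0.399 CPM, from 18, 25, 21, 7 and 6 counts. All 5 Sham HFD mice lay above all 15 other mice, whose values overlapped. *Slc39a5* was higher on HFD than on chow among sham mice (Sham Chow vs. Sham HFD, log2 fold change 1.77, SE 0.43, adjusted p = 0.00637), and among HFD-fed mice it was lower after RYGB (log2 fold change -1.94, SE 0.44, adjusted p = 0.0042). The surgery by diet interaction, the surgery difference on HFD less that on chow, was -1.55 (SE 0.65, adjusted p = 0.173) and did not pass, so a different response to surgery on the 2 diets was not shown at these counts of 2 to 121 reads. The gene passed the filter on low counts only through its Sham HFD mice, the group where it is high, so having been tested is no separate support for these differences. In the fit with no filter, where it entered whatever its level, the adjusted p-values were 0.00696 in Sham Chow vs. Sham HFD and 0.00366 in the HFD surgery contrast (0.000941 to 0.0161 and 0.000275 to 0.00855 over the other tests, scalings and filters), and with a minimum of 5 CPM it was not tested. It lies within the region of *Ankrd52* on the opposite strand but shares 0 exon bases with another gene.

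*Slc39a14* (ENSMUSG00000022094, chromosome 14 from 70303469 to 70351425) encodes ZIP14, which brings manganese, zinc and non-transferrin-bound iron into hepatocytes and is known to be induced in the acute phase response. It was at 221, 232, 198, 201 and 209 CPM in Sham HFD and at 256, 286, 291, 249 and 314 CPM in RYGB HFD. Every RYGB HFD mouse was above every Sham HFD mouse, a rise of 0.40 (SE 0.095, adjusted p = 0.00652) on the log2 scale that also passed without each single mouse (adjusted p at most 0.024). On chow it was at 223, 246, 303, 230.4 and 252.1 CPM in Sham Chow and at 268, 276, 245, 217 and 208 CPM in RYGB Chow. These groups overlapped, with a log2 difference of -0.048 (SE 0.095, adjusted p = 0.903). Between the diets *Slc39a14* was not called, at -0.24 (SE 0.095, adjusted p = 0.0733) in sham and 0.20 (SE 0.095, adjusted p = 0.256) in RYGB mice. The sham diet difference passed in 1 of 20 fits that left out a mouse (adjusted p = 0.0489). The interaction was 0.44 (SE 0.13, adjusted p = 0.0601) and missed the threshold, and over the other tests, scalings and filters its adjusted p ran from 0.0281 in DESeq2 to 0.213 with library size only. It passed without Sham Chow replicate 1 (adjusted p = 0.0458) and without RYGB Chow replicate 2 (0.0405).

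*Slc39a8* (ENSMUSG00000053897, chromosome 3 from 135825279 to 135888572) encodes ZIP8, which recovers manganese from bile and also carries zinc. It was at 31.6, 38.5, 40.8, 41.8 and 40.2 CPM in Sham HFD and at 29.0, 27.4, 30.04, 33.6 and 38.7 CPM in RYGB HFD. The groups overlapped, since Sham HFD replicate 1 lay among the RYGB HFD mice and RYGB HFD replicate 5 among the Sham HFD mice. The log2 fold change was -0.28 (SE 0.091, adjusted p = 0.0379), and this small fall was not called without any 1 of 7 mice, namely Sham HFD replicates 2 to 5 and RYGB HFD replicates 1 to 3 (adjusted p 0.0624 to 0.0934). It was also not called with no filter on low counts (adjusted p = 0.0852) or in a fit of only the 2 HFD groups (0.0623), within a range of 0.0133 to 0.0852 over the other tests, scalings and filters. On chow *Slc39a8* was at 36.1 ± 2.68 CPM in Sham Chow and 34.2 ± 1.77 CPM in RYGB Chow (n = 5 each), with a log2 difference of -0.078 (SE 0.091, adjusted p = 0.807).

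**Figure D3:**
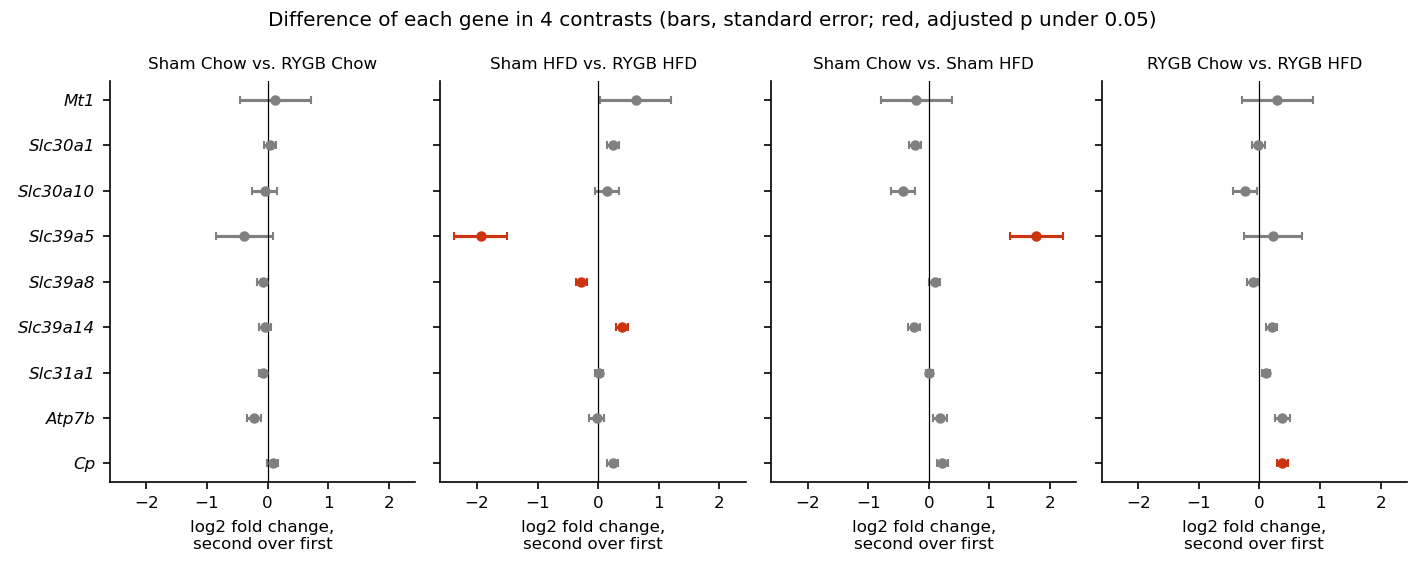
Log2 fold change (horizontal axis, second group over first) of the 9 tested members in the 4 contrasts, with the standard error as bars and adjusted p under 0.05 in red. The chow panel has 0 red points, the Sham HFD vs. RYGB HFD panel has 3 (*Slc39a5*, *Slc39a8* and *Slc39a14*), and each diet panel has 1 (*Slc39a5* in sham and *Cp* in RYGB mice).

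Markers of other cells moved in the same contrasts. Over all tested genes, 10.9% were called higher and 10.7% lower in Sham HFD than in Sham Chow. In RYGB HFD 8.54% were called higher and 7.9% lower than in Sham HFD. The 7 stellate cell markers summed to 192 to 289.8 CPM for RYGB HFD, 295 to 359 for Sham HFD, 188 to 242 for RYGB Chow and 136 to 220.1 for Sham Chow. Of the 6 tested, 6 were higher in Sham HFD than in Sham Chow, and 3 were lower after RYGB among HFD-fed mice. Of 7 macrophage markers, 4 were higher in Sham HFD than in Sham Chow and 0 were called in Sham HFD vs. RYGB HFD, where 0 also had an unadjusted p under 0.05, and their sum was 168 to 311 CPM for RYGB HFD, 186 to 265 for Sham HFD, 166 to 388 for RYGB Chow and 82.2 to 206 for Sham Chow. Of the 7 hepatocyte markers, 4 were higher and 1 was lower after RYGB among HFD-fed mice, and their sum was 78107 to 91376 CPM in Sham HFD and 107213 to 125451 in RYGB HFD. The part of these markers in the differences of *Slc39a5*, *Slc39a8* and *Slc39a14* was not tested. The pancreas also makes ZIP5, and of 8 acinar cell markers 1 (*Cela1*) passed the filter and *Amy2a5* was at 0 in all mice. The sum of the 8 was 10.6 to 21.6 CPM in Sham HFD, 12.4 to 29.8 in Sham Chow and 15.7 to 26.7 in RYGB HFD. Most of it was *Cela1*, at 15.4 ± 4.19 CPM in Sham HFD, 21.3 ± 6.97 in Sham Chow and 20.2 ± 4.51 in RYGB HFD. Of the cholangiocyte markers, *Spp1* was higher in Sham HFD than in Sham Chow. In edgeR the red cell, endothelial and lymphocyte lists had 0 genes called in the 4 contrasts, and at most 1 gene of each list had an unadjusted p under 0.05 in any of them. Only 1 of the 4 lymphocyte markers was tested. In Sham HFD vs. RYGB HFD its log2 difference was -1.38, with an unadjusted edgeR p under 0.05.

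A further importer that was not among the members, *Slc39a4* (ENSMUSG00000063354, chromosome 15 from 76612383 to 76617384), changed with surgery on both diets. It encodes ZIP4, the importer of dietary zinc whose loss causes acrodermatitis enteropathica, and it was one of 48 other zinc, copper and manganese genes listed for comparison. On chow it was at 41.2, 39.4, 31.3, 29.3 and 47.8 CPM in Sham Chow and at 71.5, 84.4, 85.2, 69.3 and 105 CPM in RYGB Chow. The groups did not overlap, and the rise of 1.13 (SE 0.18, adjusted p = 0.0222) had the smallest p-value of all 12289 genes in that contrast, where 7 genes passed. On HFD it was at 22.6, 32.2, 40.6, 27.7 and 49.9 CPM in Sham HFD and at 47.2, 62.2, 66.3, 61.2 and 68.5 CPM in RYGB HFD, a rise of 0.82 (SE 0.18, adjusted p = 0.00323) in which only the highest Sham HFD mouse reached the lowest RYGB HFD mouse. The chow call was lost without Sham Chow replicate 1, 3 or 4 (adjusted p 0.0541 to 0.11) and in a fit of only the 2 chow groups (0.0525, within a range of 4.67e-06 to 0.0525 over the other tests, scalings and filters), while the HFD call held without each single mouse. In Sham Chow vs. RYGB Chow edgeR called 0 of the 7 macrophage markers, though all 7 had an unadjusted p under 0.05 and were higher in RYGB Chow, and their part in the chow rise of *Slc39a4* was not tested. The interaction was -0.32 (SE 0.25, adjusted p = 0.504), so the 2 rises were not shown to differ. *Slc39a4* shares 0 exon bases with another gene.

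**Figure D4:**
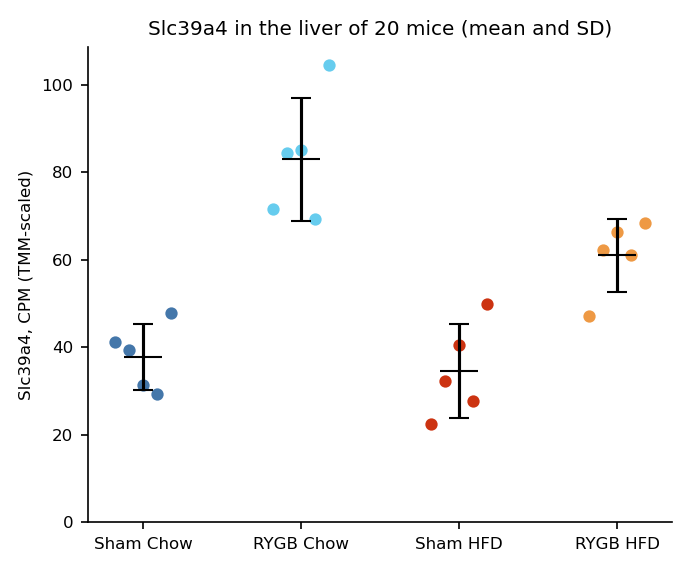
*Slc39a4* in each of the 20 mice in TMM-scaled CPM (vertical axis from 0), with the mean and SD of each group of 5. RYGB Chow mice lie from 69.3 to 105 CPM and RYGB HFD mice from 47.2 to 68.5 CPM, against 29.3 to 47.8 CPM in Sham Chow and 22.6 to 49.9 CPM in Sham HFD.

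Of the copper genes, *Slc31a1* and *Atp7b* did not pass in any contrast and *Cp* passed in 1. *Slc31a1* (ENSMUSG00000066150, chromosome 4 from 62360727 to 62391769) encodes CTR1, the high-affinity copper importer. HFD-fed mice averaged 222 ± 11.6 CPM after RYGB and 220.0 ± 8.77 CPM after sham surgery, and chow-fed mice 206 ± 13.8 and 218 ± 8.83 CPM. Its log2 differences in the 4 contrasts lay between -0.082 and 0.10, with a standard error of 0.061, and its adjusted p-values were no lower than 0.384.

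*Atp7b* (ENSMUSG00000006567, chromosome 8 from 21992785 to 22060305), the copper pump mutated in Wilson disease, loads copper onto ceruloplasmin and sends excess copper into bile. It was at 39.6, 36.2, 39.4, 45.4 and 31.6 CPM in RYGB Chow and at 54.1, 55.9, 54.3, 43.7 and 42.1 CPM in RYGB HFD. The RYGB HFD values overlapped those of RYGB Chow only through RYGB Chow replicate 4, and the log2 difference of 0.38 (SE 0.12, adjusted p = 0.0739) did not pass. It passed with DESeq2 (adjusted p = 0.0424, within a range of 0.0424 to 0.156 over the other tests, scalings and filters). Sham Chow mice averaged 44.9 ± 8.64 CPM and Sham HFD mice 51.0 ± 1.89 CPM, a log2 difference of 0.18 (SE 0.12, adjusted p = 0.263).

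*Cp* (ENSMUSG00000003617, chromosome 3 from 19957054 to 20009145) encodes ceruloplasmin, the copper-carrying ferroxidase that the liver secretes into blood and that rises in the acute phase response. In RYGB Chow vs. RYGB HFD, 1 of the 9 tested members passed (*Cp*), beside 3.65% of all tested genes, and the member median was 0.20, beside 0.0048. *Cp* was at 1190.3, 1119, 1060.1, 943 and 1186 CPM in RYGB Chow and at 1329.7, 1358, 1661, 1264 and 1539.6 CPM in RYGB HFD, so that every RYGB HFD mouse was above every RYGB Chow mouse. The rise was 0.38 (SE 0.093, adjusted p = 0.028) on the log2 scale, and it was not called without RYGB Chow replicate 4, RYGB HFD replicate 3 or RYGB HFD replicate 5 (adjusted p 0.0542 to 0.0817). Over the other tests, scalings and filters its adjusted p ran from 0.00364 to 0.0908, and the call was lost with no filter on low counts (0.066) and in a fit of only the 2 RYGB groups (0.0908). In sham mice *Cp* was at 1030.1, 1083, 1106, 863 and 1112 CPM in Sham Chow and at 1160.0, 1346, 1154, 1117 and 1281 CPM in Sham HFD. These groups did not overlap either, but the log2 difference of 0.22 (SE 0.093, adjusted p = 0.0924) did not pass, and neither did the surgery difference among HFD-fed mice, 0.24 (SE 0.093, adjusted p = 0.084). Scaled by library size only, the sham diet difference passed (adjusted p = 0.00607, within a range of 0.00607 to 0.213 over the other tests, scalings and filters). The test of the difference between the diet effects in RYGB and sham mice gave 0.16 (SE 0.13, adjusted p = 0.532), so *Cp* was not shown to respond to HFD differently after bypass. The 108 exon bases (1.13%) that *Cp* shares with *Hps3*, which had at most 309 counts, are few beside its 12087 or more counts per mouse.

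The 5 tested genes most like *Cp* over the 20 mice were *C4b* (Pearson r = 0.86), *Itih4* (0.85), *Glud1* (0.82), *F5* (0.82) and *Hp* (0.81). *C4b*, *Itih4*, *F5* and *Hp* encode plasma proteins made by the liver. With the group means taken out, r was between 0.43 and 0.66, so part of the likeness was between groups.

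In the surgery by diet interaction, 0 of the 9 tested members passed with edgeR, beside 5.06% of all tested genes. The unadjusted edgeR p was under 0.05 for *Slc39a14* and *Slc39a5*, and the share of all tested genes at that threshold is not given here. With DESeq2 1 member (*Slc39a14*) passed, and 0 passed with limma-voom. The member median was 0.19, beside 0.016 over all tested genes. *Slc39a5* was tested only through its Sham HFD mice, where it is high. These counts and the median therefore describe the genes tested and support nothing further.

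Acute phase genes are given because *Cp* and *Slc39a14* respond to the same signals in other settings. Among HFD-fed mice, 7 of the 14 listed were higher after RYGB and 1 was lower, where 8.54% of all tested genes rose and 7.9% fell, and the median log2 difference of the 14 was 0.41. Among RYGB mice, 5 were higher on HFD and 0 were lower, where 1.99% of all tested genes rose and 1.65% fell. In Sham HFD they were split against Sham Chow, with 6 higher and 4 lower, beside 10.9% and 10.7%. The 4 with the smallest p-values were the fibrinogen genes *Fgb*, *Fgg* and *Fga*, and *Lcn2*. *Fgb* was at 2936 ± 282 CPM in Sham HFD and 5253 ± 336 CPM in RYGB HFD (log2 fold change 0.84, SE 0.095, adjusted p = 8.67e-06). In the same mice *Fgg* (log2 fold change 0.75, SE 0.10, adjusted p = 4.08e-05) and *Fga* (log2 fold change 0.68, SE 0.10, adjusted p = 0.00014) were also higher after RYGB. Among HFD-fed mice *Saa2* was the 1 gene called lower after RYGB (log2 fold change -1.37, SE 0.43, adjusted p = 0.0318). *Fgb*, *Fgg* and *Fga* were lower in Sham HFD than in Sham Chow (log2 fold change -0.34 to -0.32, adjusted p 0.0152 to 0.0304). *Lcn2* was higher in Sham HFD than in Sham Chow, by 3.43 (SE 0.47, adjusted p = 4.86e-05). Between the HFD groups *Lcn2* was not called, at -0.48 (SE 0.40, adjusted p = 0.451). The part of an acute phase response in the values of *Cp* and *Slc39a14* was not tested.

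The 48 other zinc, copper and manganese genes give the setting of the members, and 40 of them passed the filter. In Sham HFD vs. RYGB HFD, 5 of the 40 were higher and 6 lower in RYGB HFD, where 8.54% of all tested genes were higher and 7.9% lower. Among sham mice 3 were higher and 4 lower on HFD, beside 10.9% and 10.7% of all tested genes. Among RYGB mice 3 were higher and 1 lower on HFD, beside 1.99% and 1.65%. Between the chow groups only *Slc39a4* passed, which was higher after RYGB, beside 0.0488% of all tested genes higher and 0.00814% lower. The median log2 difference of the 40 genes lay between -0.052 and 0.058 in the 4 contrasts.

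Among the other SLC30 exporters, 1 of 5 tested genes changed, *Slc30a9*, which rose from 66.9 ± 6.71 CPM in Sham HFD to 78.4 ± 5.21 CPM in RYGB HFD (log2 fold change 0.23, SE 0.072, adjusted p = 0.0325). Among the other SLC39 genes, 3 of 9 changed in that contrast, where 16.4% of all tested genes were called. Besides *Slc39a4* these were *Slc39a11*, at 30.7 ± 3.86 CPM in Sham HFD and 21.9 ± 5.98 CPM in RYGB HFD (log2 fold change -0.49, SE 0.15, adjusted p = 0.0247), and *Slc39a9*, with a log2 difference of -0.25 (SE 0.082, adjusted p = 0.0421). These 3 calls depended on single mice, and those of *Slc30a9* and *Slc39a9* also on settings. That of *Slc30a9* was lost without any 1 of Sham HFD replicates 2 to 5 and RYGB HFD replicates 2 and 3 (adjusted p 0.0688 to 0.0913), and that of *Slc39a11* without any 1 of Sham HFD replicates 3 and 5 and RYGB HFD replicates 2, 4 and 5 (0.051 to 0.0717). That of *Slc39a9* was lost without any 1 of the HFD-fed mice other than Sham HFD replicate 3 and RYGB HFD replicate 5 (0.0501 to 0.111). *Slc30a9* was also not called with library size only (log2 fold change 0.14, adjusted p = 0.25), no filter (0.123) or only the 2 groups (0.0664), within a range of 0.0222 to 0.25 over the other tests, scalings and filters, and *Slc39a9* not with no filter (0.0971, range 0.0223 to 0.0971).

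The copper genes included the chaperone *Atox1*, which hands copper to the ATP7 pumps. HFD-fed mice averaged 63.8 ± 4.12 CPM after RYGB and 92.2 ± 5.67 CPM after sham surgery, and chow-fed mice 80.4 ± 7.32 and 83.4 ± 10.99 CPM. Every RYGB HFD mouse was below every Sham HFD and every RYGB Chow mouse, with log2 differences of -0.53 (SE 0.087, adjusted p = 0.000274) and -0.33 (SE 0.087, adjusted p = 0.0355). The first held without each single mouse, and the second was lost without RYGB Chow replicate 2 or 5 or RYGB HFD replicate 2, 3, 4 or 5 (adjusted p 0.0582 to 0.0865), with no filter (0.0583) and in a fit of only the 2 RYGB groups (0.0599), within a range of 0.0109 to 0.0599. Of the 40 genes, only *Atox1* was called in the interaction, beside 5.06% of all tested genes. Its interaction was -0.48 (SE 0.12, adjusted p = 0.0276), a call lost without Sham HFD replicate 3 or 5 (adjusted p 0.0519 to 0.0538) and with no filter (0.0511, within a range of 0.00485 to 0.0511).

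Of the other copper genes, *Steap2*, a metalloreductase, rose in RYGB HFD over Sham HFD by 0.98 (SE 0.20, adjusted p = 0.00239) on the log2 scale, from 6.25 ± 1.29 to 12.3 ± 2.43 CPM. Its chow difference was 0.47 (SE 0.20, adjusted p = 0.394) and its interaction 0.50 (SE 0.29, adjusted p = 0.327), and neither was called. *Slc31a2*, a low-affinity copper transporter of internal membranes, fell in Sham HFD vs. RYGB HFD, with a log2 fold change of -0.43 (SE 0.12, adjusted p = 0.0143). *Steap4* was higher on HFD in both surgery groups, by 0.63 (adjusted p = 0.0016) in sham mice and 0.62 (adjusted p = 0.00816) in RYGB mice, and *Steap3* passed in RYGB mice, at 0.59 (adjusted p = 0.0151). *Ccs*, the copper chaperone of superoxide dismutase, was lower in Sham HFD than in Sham Chow, at 105 ± 4.65 against 136 ± 6.51 CPM (log2 fold change -0.38, SE 0.095, adjusted p = 0.00787).

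The manganese genes showed 2 of 4 higher in RYGB HFD than in Sham HFD, beside 8.54% of all tested genes. *Slc11a2* encodes DMT1, a carrier of iron, manganese and other divalent metals, and rose from 33.8 ± 4.45 to 57.5 ± 12.1 CPM (log2 fold change 0.77, SE 0.14, adjusted p = 0.000659). On chow the *Slc11a2* difference was 0.52 (SE 0.14, unadjusted p = 0.00111, adjusted p = 0.173) and was not called. The interaction of *Slc11a2* was 0.25 (SE 0.19, adjusted p = 0.501), so the 2 differences were not shown to differ. *Atp13a1*, an ATPase of the endoplasmic reticulum, rose by 0.32 (SE 0.08, adjusted p = 0.00802), but this was not called with library size only (log2 fold change 0.23, adjusted p = 0.109, within a range of 0.00271 to 0.109 over the other tests, scalings and filters). It was also lower in Sham HFD than in Sham Chow, at -0.24 (adjusted p = 0.0377), a call lost without any 1 of the sham mice other than Sham Chow replicate 4 and Sham HFD replicate 2 (adjusted p 0.0518 to 0.1), and with library size only (log2 fold change -0.11, adjusted p = 0.436), no filter (0.0839) or a minimum of 5 CPM (0.0542), within a range of 0.0269 to 0.436.

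Of the 9 enzymes that carry these metals, the superoxide dismutases moved in different directions. Copper-zinc *Sod1* was lower in Sham HFD than in Sham Chow, at 568 ± 37.7 against 772 ± 101 CPM (log2 fold change -0.44, SE 0.095, adjusted p = 0.00264), and extracellular *Sod3* was higher, at 43.7 ± 4.91 against 22.7 ± 4.11 CPM (log2 fold change 0.94, SE 0.14, adjusted p = 0.000142). *Sod3* was also higher in RYGB HFD than in RYGB Chow, at 0.57 (adjusted p = 0.0314), a call lost without any 1 of RYGB Chow replicates 1, 2 and 4 and RYGB HFD replicates 3 to 5 (adjusted p 0.0539 to 0.092), with library size only (0.0501) and in a fit of only the 2 RYGB groups (0.0856), within a range of 0.00661 to 0.0856. Manganese *Sod2* was lower after RYGB among HFD-fed mice (log2 fold change -0.28, SE 0.072, adjusted p = 0.0102). On chow the *Sod2* difference was -0.22 (SE 0.072, unadjusted p = 0.00522, adjusted p = 0.265) and was not called. The interaction of *Sod2* was -0.056 (SE 0.10, adjusted p = 0.803), so the 2 differences were not shown to differ. *Car2*, a zinc-dependent carbonic anhydrase, was higher in Sham HFD than in Sham Chow, at 0.70 (adjusted p = 0.0303), and lower after RYGB among HFD-fed mice, at -0.75 (adjusted p = 0.0249). The urea cycle enzyme *Arg1*, which carries manganese, was lower in Sham HFD than in Sham Chow, at -0.56 (adjusted p = 0.0283). The call of *Arg1* was lost without any 1 of Sham Chow replicates 3 to 5 and Sham HFD replicates 1, 3 and 4 (adjusted p 0.0539 to 0.0792). That of *Car2* between the diets was lost without any 1 of Sham Chow replicates 1, 2, 3 and 5 and Sham HFD replicates 2 and 5 (0.0655 to 0.0731), and that between the HFD groups without any 1 of Sham HFD replicates 2 and 5 and RYGB HFD replicates 1, 2 and 4 (0.0551 to 0.0674).

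**Figure D5:**
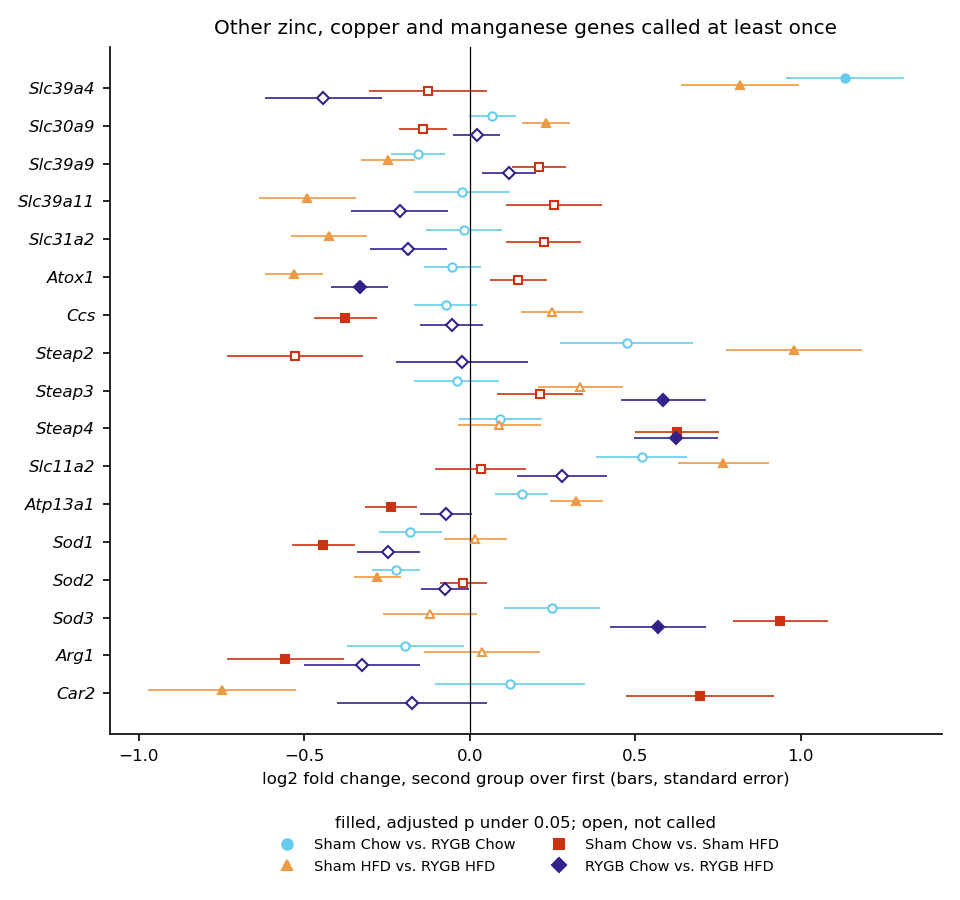
Log2 fold change (horizontal axis, second group over first, bars for the standard error) of the 17 other zinc, copper and manganese genes called in at least 1 of the 4 contrasts, with filled symbols for adjusted p under 0.05 and open symbols for the rest. *Slc39a4* is the only gene with a filled symbol for Sham Chow vs. RYGB Chow, and it lies to the right in both surgery contrasts.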

How the data were processed

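Liver RNA of 20 mice (5 in each of 4 groups, 1 library each) was sequenced. The authors deposited raw counts per gene, made with Trimmomatic 0.36, HISAT2 2.1.0 and featureCounts 1.5.0-p3 on mm10. The strand setting of featureCounts is not given in the sources used here. Totals ran from 14604854 to 22537498 counts per mouse. Standard errors include the spread between mice, and the limit for a count of 0 covers counting error only. No 2 mice held identical values, and the labels name no batch.

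Counts were tested in edgeR 4.0.16 (R 4.3.3), with TMM factors, a CPM minimum of 2 reached by 3 or more mice (12289 genes), 1 quasi-likelihood model of all 20 mice and Benjamini-Hochberg adjustment over all tested genes. A gene was called at an adjusted p under 0.05. Log2 fold changes are of the second group over the first, and the interaction is the surgery difference on HFD less that on chow. The procedure was tested on simulated data. The study's own test, DESeq2 (1.42.0), was an alternative, as were limma-voom (limma 3.58.1), other scalings and filters, fits of only the 2 groups, a replicate block and leaving out each mouse. *Mt2* was tested by exact permutation. Exon lengths and overlaps came from GENCODE on GRCm38 and promoters from RefSeq on GRCm38.p6.

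The members and gene lists were chosen with earlier results of these data known. Named were all members, the 5 genes most like *Mt1* and *Cp*, and genes of the other lists called in at least 1 contrast, or the 4 with the smallest p where over 8 were called. *Saa2* was named besides, as the 1 acute phase gene called lower after RYGB among HFD-fed mice. Marker lists are given mostly by counts.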

Additional observations from a re-analysis of the deposited data

Results flagged for a closer look

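The surgery by diet interaction of *Atox1*, the copper chaperone, was set apart because the effect of surgery differed between the diets by a test of the difference itself. It was the 1 call among the 40 other metal genes tested, beside 5.06% of all tested genes. The log2 value was -0.48 (edgeR, adjusted p = 0.0276), and it was not called without Sham HFD replicate 3 or Sham HFD replicate 5 (adjusted p 0.0519 to 0.0538) or with no filter on low counts (0.0511). In the 40 checks of 1 gene in 1 group for a mouse far from the other 4, 0 passed the critical ratio of 0.71. That result says nothing of *Mt2*, where 1 Sham Chow mouse had 5 counts and the other 4 had 0.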

How the results depend on the processing

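Of 29 called differences of named metal genes, 0 changed sign and 15 kept their call under each alternative that could be fitted, and of 43 uncalled ones 38 stayed uncalled. The members called in Sham HFD vs. RYGB HFD numbered 2 to 4 (3 as reported), and 0 in Sham Chow vs. RYGB Chow throughout. For Sham Chow vs. Sham HFD (1) they numbered 2 with library size only, 0 with a CPM of at least 5 (where *Slc39a5* was not tested), and 1 to 2 without single mice. In RYGB Chow vs. RYGB HFD (1) they numbered 2 with DESeq2, 0 with no filter and 0 with only the 2 groups, and 0 to 2 without single mice. In the interaction (0) they numbered 1 with DESeq2 and 0 to 1 without single mice.

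Same-numbered mice did not deviate together (r from -0.26 to 0.17 over 30 pairs, 5 over 0.1), so no pairing by replicate number was seen. Low correlations cannot exclude that same-numbered mice were handled together. With the replicate block 4 members were called in Sham HFD vs. RYGB HFD and 2 in Sham Chow vs. Sham HFD, *Cp* passing in both (adjusted p = 0.0453 and 0.0454). The call of *Slc39a9* in Sham HFD vs. RYGB HFD was lost (adjusted p = 0.064). In RYGB Chow vs. RYGB HFD the calls of *Atox1* (0.0538) and *Sod3* (0.0511) were lost.

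Over all genes, Sham Chow vs. RYGB Chow had 7 calls, against 92 with DESeq2, 3 with limma-voom, 13 with no filter, 0 with only the 2 groups and 0 to 15 without single mice. RYGB Chow vs. RYGB HFD had 448, against 751 with DESeq2, 184 with only the 2 groups and 244 to 488 without single mice, and the interaction had 622, against 377 to 805. With library size only, the share of calls that were higher moved from 52.0% to 26.6% in Sham HFD vs. RYGB HFD, from 50.3% to 80.4% in Sham Chow vs. Sham HFD and from 49.0% to 20.2% in the interaction, and the median of all genes moved to 0.12 in Sham Chow vs. Sham HFD.

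The 14 differences that changed sign were uncalled. On chow (Sham Chow vs. RYGB Chow), *Mt1* was -0.25 with limma-voom and -0.043 with the replicate block, *Slc39a5* was 0.091 with limma-voom and *Slc39a14* was 0.00242 with library size only. *Slc31a1* was -0.081 (library size only) and -0.00441 (CPM of at least 5) in Sham HFD vs. RYGB HFD, -0.000347 (no filter) in Sham Chow vs. Sham HFD and -0.042 (library size only) in the interaction, and *Slc39a4* was 0.00340 (library size only) in Sham Chow vs. Sham HFD. Without single mice, values in Sham Chow vs. RYGB Chow ran from -0.34 to 0.39 for *Mt1*, -0.019 to 0.10 for *Slc30a1*, -0.18 to 0.055 for *Slc30a10* and -0.099 to 0.030 for *Slc39a14*. In Sham HFD vs. RYGB HFD they ran from -0.025 to 0.26 for *Slc30a10*, -0.079 to 0.027 for *Atp7b* and -0.014 to 0.026 for *Slc31a1*. For Sham Chow vs. Sham HFD they ran from -0.44 to 0.0066 for *Mt1* and -0.0030 to 0.033 for *Slc31a1*, and in RYGB Chow vs. RYGB HFD from -0.19 to 0.76 for *Mt1* and -0.073 to 0.035 for *Slc30a1*. The cause was not tested. *Mt2* (9 counts in all mice) was too low for a comparison.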

Other observations

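Listed metal genes that did not pass the filter were *Slc30a2*, *Slc30a3*, *Slc30a8*, *Slc39a2* and *Slc39a12*, with highest levels between 0.438 and 2.03 CPM in any mouse. *Mt3*, *Mt4* and *Sco2* had 0 counts in all 20 mice.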
